A study of Homo sapiens with 6 samples.

Results

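The genes described here are 10 subunits of the Polycomb complexes, the chromatin machinery that keeps developmental genes silent. They were taken by symbol from a fixed list, namely EZH1, EZH2, EED, SUZ12, JARID2, PHC1, PHC2, CBX2, CBX7 and BMI1. All 10 were found among the 23284 genes of the deposited table, and all 10 were tested in all 3 comparisons. RNA came from WA01, an established human embryonic stem cell line of wildtype genotype, during induction of neural crest, a migratory population of the embryo whose descendants include melanocytes, facial skeleton and peripheral nerve cells. The 6 libraries of poly-adenylated RNA fall into 3 groups of 2: embryonic stem cells on day 0, pre-neural crest cells on day 3 and neural crest cells on day 5. Per the labels' protocols, cells were seeded on Matrigel (20000 per cm2) with 3 µM CHIR99021, which activates WNT signalling by blocking GSK3, and, at first, 10 µM Y-27632, a blocker of ROCK kinases. The same protocol text is given for every library, day 0 included, so it does not say which cells had been treated. All libraries are from 1 cell line. Separate cultures are not stated for the replicates, and the deposited p-values may therefore reflect technical spread alone.

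Polycomb repressive complex 2 (PRC2) places methyl groups on lysine 27 of histone H3, through its catalytic subunit EZH2 or the paralog EZH1, and needs the core subunits EED and SUZ12. Accessory subunits such as JARID2 help to bring it to its target genes. Polycomb repressive complex 1 (PRC1) ubiquitinates histone H2A. In its canonical form it combines a RING ligase with a PCGF partner (BMI1 is PCGF4), a CBX chromodomain protein that reads methylated lysine 27, and a PHC protein whose SAM domain polymerises and compacts chromatin. In mouse embryonic stem cells, exchange of Cbx7 for Cbx2 and other Cbx proteins is a known step of differentiation.

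Levels are FPKM (fragments scaled to the length of the transcript and the size of the library), listed once per gene and group, so no spread between replicates and no depth per library could be given. Each fold change below is the log2 ratio of group FPKM, followed after ± by an implied standard error, the ratio divided by its deposited test statistic. Calls, higher or lower, are those with q below 0.05 in the authors' deposited table. RNA was measured in bulk, so fewer cells of a type and less RNA per cell cannot be told apart. As a check of the labels, 6 markers of undifferentiated cells summed to 2344, 1045 and 601 FPKM over the course, with SOX2 and LIN28A still high on day 5 (129 and 419). The 6 pre-neural crest markers summed to 1.74, 18.3 and 143, highest on day 5 and not on the day labelled for them. The day 5 sum was mainly MSX1 (73.2) and PAX3 (39.9). GBX2 alone of the 6 was highest on day 3, at 0.635, 8.22 and 0.560 on days 0, 3 and 5. The 6 neural crest markers summed to 30.8, 14.7 and 58.8, with 4, 4 and 6 of them above 1 FPKM. SOX10 was at 1.82, 3.87 and 6.33, but FOXD3 (17.9, 0.876 and 15.4) and ETS1 (7.27, 1.11 and 6.14) were not higher on day 5 than on day 0. Of 14 markers of other lineages (mesendoderm, muscle, endothelium, trophoblast, blood), 3 on day 0, 1 on day 3 and 0 on day 5 reached 1 FPKM, and the highest was KRT7 at 8.45 on day 0. FOXB1, the gene in the series title, stood at 3.77, 73.6 and 4.08 on days 0, 3 and 5.

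The subunits did not move as a block. By day 3, PHC2, BMI1 and EZH2 rose, PHC1, JARID2 and CBX7 fell, and EZH1, EED, SUZ12 and CBX2 were not called. Against day 0, the day 3 calls were thus 3 of 10 members up and 3 of 10 down, where 8.96% of all 16231 tested genes were called higher and 11.6% lower. Their median log2 ratio was 0.49, against 0.04 over all genes tested. The largest folds were those of PHC1 and PHC2, in opposite directions. In the step to day 5 from day 3, 1 of 10 members (BMI1) was called higher and 0 lower, in the authors' deposited table, where 5.93% of 15932 tested genes were called higher and 6.68% lower. Other call rules were set beside these, namely a q below 0.01, a p computed from the test statistic, adjustment within a comparison and a minimum of 1 FPKM. In that order, they called 6, 5, 6 and 6 members on day 3 against day 0, where 13.8%, 14.6%, 20.6% and 20.8% of tested genes were called. For day 5 against day 3 they called 0, 0, 0 and 1 members and 7.56%, 7.84%, 10.5% and 12.6% of tested genes. For day 5 against day 0 each called 5 members, beside 19.0%, 19.1%, 28.9% and 27.6% of tested genes.

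**Figure D1:**
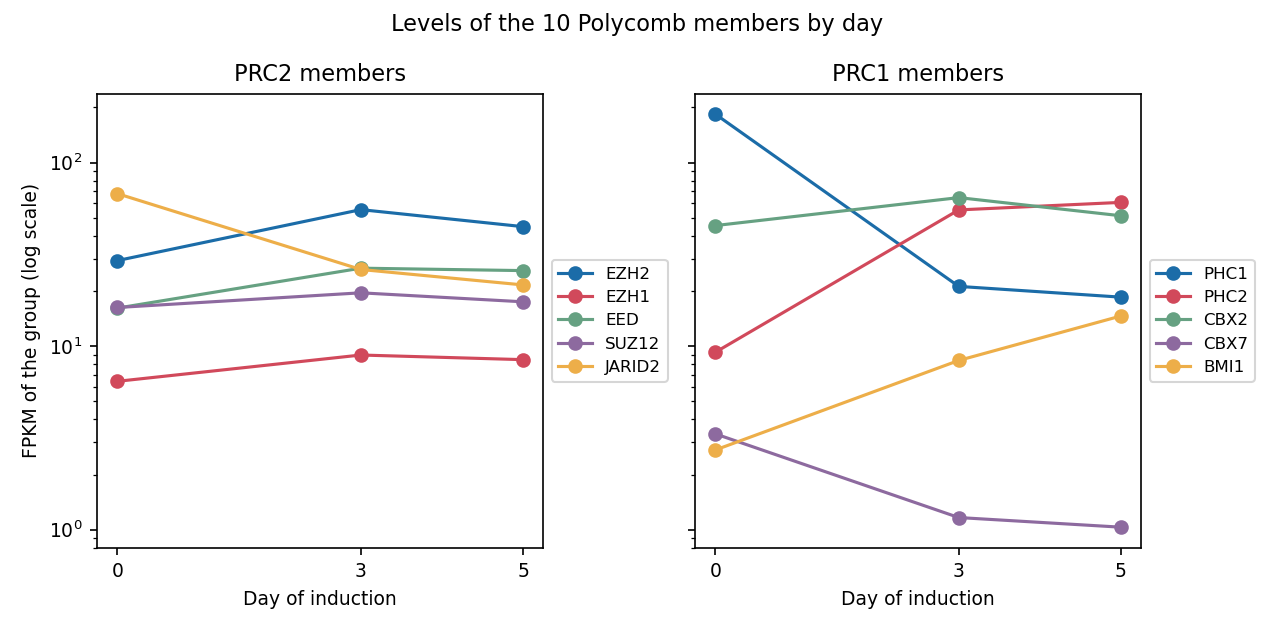
FPKM of each member (log scale) against day of induction, PRC2 members on the left and PRC1 members on the right; each point is the authors' value for a group of 2 libraries, so no error is drawn. PHC1 drops below PHC2 by day 3 (21.2 against 55.3), while SUZ12 stays between 16.3 and 19.5.

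The PHC genes carried the largest change. PHC1 (listed in a shared locus, chromosome 12, 9067316 to 9102357, hg19) had 184 FPKM on day 0, 21.2 on day 3 and 18.5 on day 5. Its day 0 level ranked 531st by FPKM among all genes, far above every other member. It was 8.68-fold lower on day 3 than on day 0 (log2 -3.12 ± 0.57; the authors' deposited table gives q = 0.000596). This was the 159th largest fall among 10125 tested genes that reached 5 FPKM on either day. PHC2 (chromosome 1, 33789224 to 33841194) ran the other way, at 9.28 on day 0, 55.3 on day 3 and 60.8 on day 5. Day 3 was 5.96-fold above day 0 (log2 2.58 ± 0.42), the 139th largest rise of the same genes. The table gives PHC2 the same locus as the small RNA gene MIR3605. In both genes nearly the whole change over the course was in place by day 3: the log2 change from day 0 to day 3 was 94.1% of that from day 0 to day 5 for PHC1 and 95.0% for PHC2. From day 3 to day 5 neither was called (log2 -0.19 ± 0.62 for PHC1 and 0.14 ± 0.35 for PHC2).

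As FPKM is scaled to length, the paralogs can be set side by side. PHC1 stood 19.8-fold above PHC2 on day 0, whereas PHC2 stood 2.61-fold above PHC1 on day 3 and 3.28-fold above it on day 5. PHC3, the remaining paralog, was low throughout, at 2.19, 2.89 and 4.44 on days 0, 3 and 5, and was called higher on day 5 than on day 0 (log2 1.02 ± 0.46). The share of PHC1 in the summed FPKM of the 3 PHC genes was 94.1% on day 0, 26.7% on day 3 and 22.1% on day 5. That sum itself was 79.4 on day 3 and 83.8 on day 5, against 195 on day 0. The summed FPKM of the family was thus lower on both later days than on day 0.

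PHC1 shares its locus in the table with M6PR, a mannose 6-phosphate receptor gene, and the FPKM of each depends on how fragments in the overlap were assigned. In GENCODE release 29, 21.2% of the 50-base words of the longest coding PHC1 transcript also occur, on either strand, in M6PR transcripts, and 50.1% in those of the pseudogene PHC1P1. M6PR was at 58.3 on day 3, against 128 on day 0 (log2 -1.13 ± 0.70), without a call, and PHC1P1 was not analysed here. The level of PHC1 is therefore uncertain, and the part of shared sequence in its fall was not tested. Of 16 genes whose listed loci begin within 500 kb of the start of its own, 3 reached an FPKM of 5 on any day. None of these 3 (M6PR, RIMKLB and LOC642846) was called between day 3 and day 0. RIMKLB, for example, was at 13.7 on day 3, against 17.3 on day 0. Among the weakly expressed neighbours, A2ML1, which starts 92.2 kb before PHC1, was called lower (0.0732 on day 3, against 2.15 on day 0).

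Promoter windows are shown for the 6 members called on day 3 against day 0. Both are given for PHC1 and PHC2, and 1 for each of the others; of the further windows of BMI1, EZH2 and JARID2, none holds a motif searched here. Each covers 250 bases before and 50 after an annotated start, 5′ to 3′ on the gene's strand, from RefSeq on GRCh38.p14, a later build than the hg19 of the table; 9 of the 10 members (all but CBX2) had 14 such windows. Capitals mark the motifs searched on both strands: octamer ATGCAAAT, SOX CATTGT, TCF/LEF CTTTGAT or CTTTGAA, E2F TTTGGCGC or TTTCGCGC, E-box CACGTG and CRE TGACGTCA. These motifs were chosen with the windows in view, and a match is a run of letters, not a shown binding site.
PHC1 upstream start (chr12:8913593-8913892, + strand): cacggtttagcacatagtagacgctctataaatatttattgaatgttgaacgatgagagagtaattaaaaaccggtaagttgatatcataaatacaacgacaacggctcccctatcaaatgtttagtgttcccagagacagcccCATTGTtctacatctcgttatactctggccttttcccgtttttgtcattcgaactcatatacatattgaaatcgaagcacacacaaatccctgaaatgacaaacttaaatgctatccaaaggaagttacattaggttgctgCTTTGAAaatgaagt
PHC1 downstream start (chr12:8914259-8914558, + strand): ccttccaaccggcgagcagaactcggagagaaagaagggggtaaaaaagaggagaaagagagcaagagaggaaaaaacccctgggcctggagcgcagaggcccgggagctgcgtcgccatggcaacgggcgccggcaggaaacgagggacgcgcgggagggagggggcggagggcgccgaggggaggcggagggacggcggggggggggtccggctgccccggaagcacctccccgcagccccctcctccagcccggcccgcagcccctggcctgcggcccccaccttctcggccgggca
PHC2 upstream start (chr1:33431046-33431345, - strand): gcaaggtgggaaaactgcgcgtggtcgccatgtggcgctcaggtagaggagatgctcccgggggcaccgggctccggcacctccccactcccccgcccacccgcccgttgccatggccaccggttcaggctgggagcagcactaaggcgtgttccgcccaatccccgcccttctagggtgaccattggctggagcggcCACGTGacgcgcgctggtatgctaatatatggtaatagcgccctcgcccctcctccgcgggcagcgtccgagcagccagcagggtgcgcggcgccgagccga
PHC2 downstream start (chr1:33349850-33350149, - strand): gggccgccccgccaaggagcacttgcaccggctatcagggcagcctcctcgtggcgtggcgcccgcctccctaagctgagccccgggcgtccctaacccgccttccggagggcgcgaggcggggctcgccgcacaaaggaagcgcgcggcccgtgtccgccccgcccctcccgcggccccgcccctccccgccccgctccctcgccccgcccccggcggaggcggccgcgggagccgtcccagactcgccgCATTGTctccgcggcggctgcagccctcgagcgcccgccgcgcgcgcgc
CBX7 (chr22:39152631-39152930, - strand): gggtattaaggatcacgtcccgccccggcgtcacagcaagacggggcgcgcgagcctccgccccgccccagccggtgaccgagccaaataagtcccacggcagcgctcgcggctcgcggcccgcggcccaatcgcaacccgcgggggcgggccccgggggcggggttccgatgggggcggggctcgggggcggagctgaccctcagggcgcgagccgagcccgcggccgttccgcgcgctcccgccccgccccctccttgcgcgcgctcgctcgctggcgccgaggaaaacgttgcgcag
BMI1 upstream start (chr10:22320849-22321148, + strand): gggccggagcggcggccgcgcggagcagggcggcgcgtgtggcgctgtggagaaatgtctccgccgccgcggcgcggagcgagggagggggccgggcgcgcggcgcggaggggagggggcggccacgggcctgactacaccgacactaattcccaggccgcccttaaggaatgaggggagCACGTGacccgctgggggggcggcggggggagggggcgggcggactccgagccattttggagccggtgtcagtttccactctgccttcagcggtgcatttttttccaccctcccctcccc
EZH2 upstream start (chr7:148884242-148884541, - strand): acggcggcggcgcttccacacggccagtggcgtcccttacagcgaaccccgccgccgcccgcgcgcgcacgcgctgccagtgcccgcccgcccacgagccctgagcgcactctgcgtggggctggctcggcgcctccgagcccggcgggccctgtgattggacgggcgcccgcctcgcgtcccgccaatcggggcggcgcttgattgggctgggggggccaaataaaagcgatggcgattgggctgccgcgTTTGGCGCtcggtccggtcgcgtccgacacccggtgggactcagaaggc
JARID2 downstream start (chr6:15248605-15248904, + strand): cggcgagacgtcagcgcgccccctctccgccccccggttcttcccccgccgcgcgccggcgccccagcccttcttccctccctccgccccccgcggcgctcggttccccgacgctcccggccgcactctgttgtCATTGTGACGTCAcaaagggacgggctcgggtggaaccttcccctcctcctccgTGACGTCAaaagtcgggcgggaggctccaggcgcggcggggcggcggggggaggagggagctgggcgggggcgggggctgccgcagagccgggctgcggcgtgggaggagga

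The 2 PHC1 windows differ in composition. The upstream window is 37.0% G and C with 10 CpG, and the downstream window is 72.3% G and C with 28 CpG, where the median of all 35116 windows is 58.7% and 14. The upstream PHC1 window holds a CATTGT, found in 10.8% of all windows, 106 bases before the start, and a CTTTGAA, found in 4.43% of all windows. The window of SUZ12, which was not called, holds both of these as well. The upstream windows of PHC2 and BMI1 each hold a CACGTG, 52 and 70 bases before the start; 7.26% of all windows hold it. The downstream window of PHC2 holds no CACGTG but a CATTGT from position 2, the motif also seen in PHC1. The CBX7 window, the downstream windows of PHC1, BMI1 and EZH2 and the upstream window of JARID2 hold none of the motifs. EZH2 holds TTTGGCGC from position 2 (the start site being position 1), a run present in 0.652% of all windows. JARID2 holds TGACGTCA 111 and 62 bases before the start, the upstream copy overlapping a CATTGT; 1.85% of all windows hold TGACGTCA. No member window holds the octamer, CTTTGAT or TTTCGCGC. The table of FPKM does not say which start was used.

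BMI1 (listed in a shared locus, chromosome 10, 22605312 to 22620414), the PCGF partner that stimulates the RING ligase, climbed at each step. Its FPKM was 2.72 on day 0, 8.37 on day 3 and 14.6 on day 5. Day 3 was 3.07-fold above day 0 (log2 1.62 ± 0.46) and day 5 was 5.37-fold above day 0 (log2 2.43 ± 0.45), and the authors' deposited table gives q = 0.000596 for both. Day 5 was 1.75-fold above day 3 (log2 0.81 ± 0.49) and the authors' deposited table gives q = 0.0454. This last call is lost when the deposited p is adjusted within that comparison alone, at a q threshold of 0.01, or with a p computed from the test statistic. BMI1 shares its locus with COMMD3 and with their read-through transcript COMMD3-BMI1, which holds 28.2% of the 50-base words of BMI1. COMMD3 was itself called higher on day 5 than on day 0 (13.7 against 3.23, log2 2.08 ± 0.90). For it the authors' deposited table gives q = 0.0478, so the COMMD3 call is lost at a q below 0.01. The read-through, listed at 0.438, 0.704 and 1.05 on days 0, 3 and 5, was not called.

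Among the 6 PCGF genes, PCGF2 (MEL18, the closest paralog of BMI1) was the highest on every day, at 35.2, 42.4 and 34.9, and was not called. The share of BMI1 in the summed PCGF FPKM was 3.71% on day 0, 8.35% on day 3 and 14.9% on day 5. PCGF3, a partner in variant PRC1, was called higher on day 5 than on day 0 (19.2 against 11.2, log2 0.77 ± 0.40), a call lost at a q below 0.01 and with a p computed from the test statistic. PCGF1, PCGF5 and PCGF6 were called in no comparison. The RING ligases RING1 and RNF2, on which every PRC1 depends, were not called either. RING1 was at 19.0, 28.0 and 24.4 and RNF2 at 15.8, 17.1 and 17.5 on days 0, 3 and 5.

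CBX7 (chromosome 22, 39526779 to 39548538), one of the CBX readers, was at 3.33 on day 0, 1.17 on day 3 and 1.03 on day 5. Day 3 was 2.86-fold below day 0 (log2 -1.51 ± 0.47; the authors' deposited table gives q = 0.00363) and day 5 was 3.22-fold below day 0 (log2 -1.69 ± 0.49). These are low levels, and 30.2% of the 50-base words of CBX7 also occur in transcripts of the GENCODE gene AL031846.2, so its values are uncertain. CBX2 (chromosome 17, 77751977 to 77761449), which compacts chromatin as well as reading it, was the highest of the 4 CBX genes described here on all 3 days, at 45.5, 64.6 and 51.4, and was called in no comparison (log2 0.51 ± 0.41 on day 3 against day 0). CBX2 already exceeded CBX7 13.7-fold on day 0, and exceeded it 55.4-fold on day 3 and 49.8-fold on day 5; with a pseudocount of 1 the ratios on days 3 and 5 are 30.3 and 25.8. That widening came with a called fall of CBX7 and no called change of CBX2.

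The listed locus of CBX8 begins 16.2 kb beyond that of CBX2 on chromosome 17, by lower coordinate and whatever the strand. CBX8 was called higher on day 3 than on day 0 (4.48 against 1.02, log2 2.13 ± 0.48) and stood at 5.49 on day 5. CBX6 was at 7.33, 8.35 and 6.57 on days 0, 3 and 5 and was not called. Of the summed FPKM of CBX2, CBX6, CBX7 and CBX8, CBX7 made up 5.83% on day 0, 1.48% on day 3 and 1.60% on day 5. CBX8 made up 1.79%, 5.70% and 8.52%, and CBX2 between 79.6% and 82.2%.

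**Figure D2:**
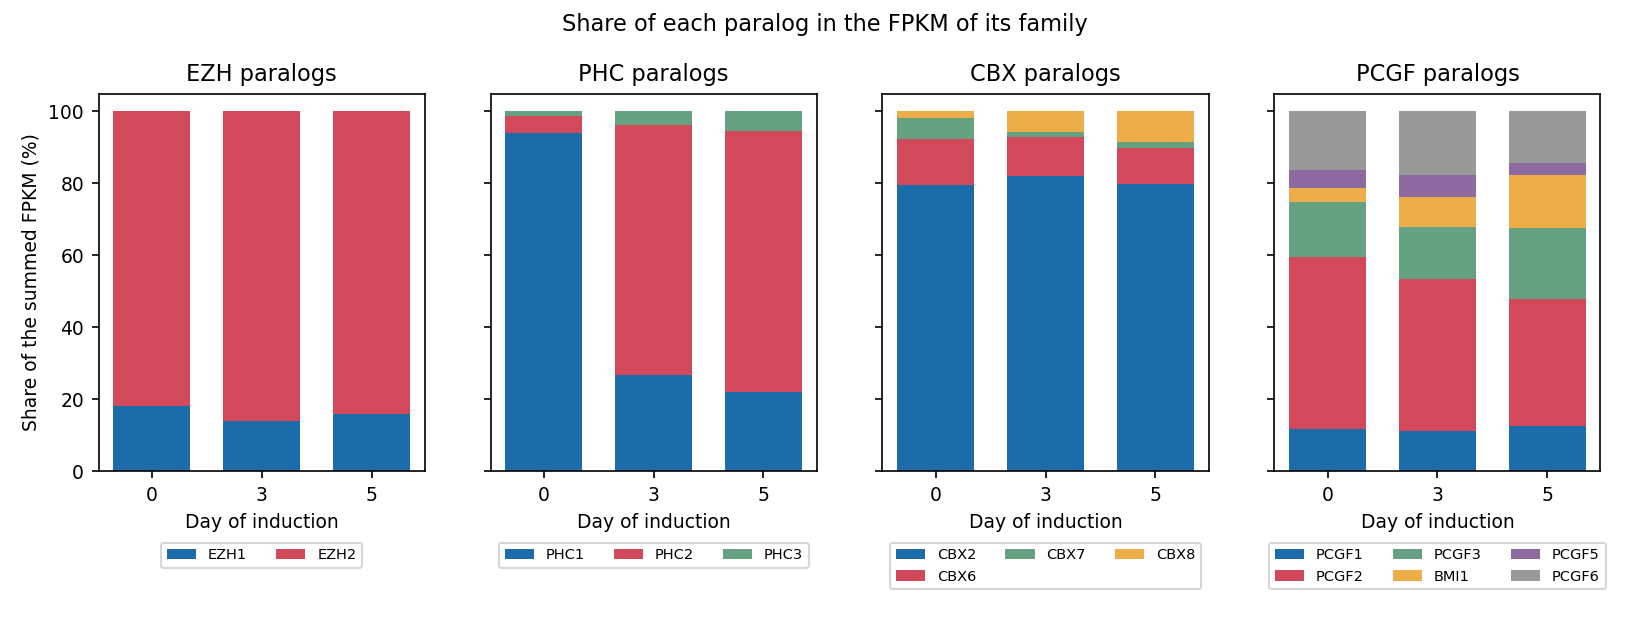
Share of each paralog in the summed FPKM of the family genes shown (%), by day, for the EZH, PHC, CBX and PCGF genes; bars are the authors' group values with no replicate error. The PHC family turns over, with PHC1 at 94.1% on day 0 and 26.7% on day 3, while EZH2 keeps 82.0% to 86.1% of the EZH sum.

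In PRC2, the catalytic subunit EZH2 (chromosome 7, 148504464 to 148581441) was at 29.3 on day 0, 55.5 on day 3 and 44.8 on day 5. Day 3 was 1.89-fold above day 0 (log2 0.92 ± 0.38; the authors' deposited table gives q = 0.0051), a call that is lost with a p computed from the test statistic. Day 5 against day 0 was not called (log2 0.61 ± 0.38; the authors' deposited table gives q = 0.0972). The proliferation markers MKI67, TOP2A and CCNB1 summed to 242, 243 and 283 on days 0, 3 and 5, and none of the 3 was called in any comparison; their part in the rise of EZH2 was not tested. EZH1 (chromosome 17, 40852293 to 40897071), the paralog typical of cells that no longer divide, was at 6.44, 8.96 and 8.45 and was not called. EZH2 exceeded EZH1 4.55-fold on day 0, 6.20-fold on day 3 and 5.31-fold on day 5.

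EED (chromosome 11, 85955806 to 85989785), which binds the methylated lysine, was at 16.1, 26.6 and 25.8 on days 0, 3 and 5. Its q of 0.0581 for day 3 against day 0 in the authors' deposited table lay just above the threshold (log2 0.72 ± 0.40). SUZ12 (chromosome 17, 30264044 to 30328057), the scaffold, was at 16.3, 19.5 and 17.5 (log2 0.27 ± 0.42 on day 3 against day 0). Of its 50-base words, 9.68% occur in the pseudogene SUZ12P1, listed in the table as SUZ12P at 27.8, 28.5 and 32.3 without a call. RBBP4 and RBBP7, the histone chaperones of PRC2, were not called in any comparison. RBBP4 was at 26.7, 38.2 and 36.4 and RBBP7 at 87.3, 77.5 and 82.4.

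JARID2 (chromosome 6, 15246527 to 15522253), an accessory subunit of the PRC2.2 form, was the PRC2 member that fell. It was the highest PRC2 member on day 0, at 67.8, and was at 26.2 on day 3 and 21.6 on day 5. Day 3 was 2.59-fold below day 0 (log2 -1.37 ± 0.38) and day 5 was 3.14-fold below day 0 (log2 -1.65 ± 0.38), and the authors' deposited table gives q = 0.000596 for both. Its partner in PRC2.2, AEBP2, also fell, to 6.50 on day 3, against 14.6 on day 0 (log2 -1.16 ± 0.39), and stood at 8.95 on day 5.

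Of 6 accessory genes of the alternative form, PRC2.1, 2 were called higher on day 3 than on day 0 and 0 lower, where 8.96% and 11.6% of tested genes were. EPOP (listed as C17orf96), which links PRC2 to elongin, was at 3.15 on day 0, 30.9 on day 3 and 14.8 on day 5. A 9.80-fold rise by day 3 (log2 3.29 ± 0.35) was followed by a fall: day 5 stood below day 3 (log2 -1.06 ± 0.32). PCGF2, whose listed locus begins 58.6 kb beyond that of EPOP on chromosome 17, was not called. LCOR rose to 3.79 on day 3, against 1.82 on day 0 (log2 1.06 ± 0.41), a call lost with a p computed from the test statistic. LCOR is listed as 1 gene (chromosome 10, 98592017 to 98724198), so its isoforms, and any one that joins PRC2.1, could not be told apart. The Polycomb-like proteins PHF1, MTF2 and PHF19, which bind CpG-rich DNA, were called in no comparison, with FPKM of 22.3, 26.7 and 24.4, of 31.7, 27.03 and 30.2, and of 10.7, 6.90 and 6.51 on days 0, 3 and 5. The gene EZHIP, an inhibitor of EZH2, was not analysed here.

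Across the whole course, day 5 calls against day 0 were 2 of 10 members up and 3 of 10 down, where 12.2% and 14.7% of 16409 tested genes were called. This comparison and that of day 3 share the day 0 libraries, so they are not separate evidence. The members called were PHC2 (log2 2.71 ± 0.43), BMI1, PHC1 (log2 -3.31 ± 0.59), CBX7 and JARID2. The 4 core PRC2 subunits EZH1, EZH2, EED and SUZ12 were not among them, with log2 ratios between 0.10 and 0.68. The median log2 ratio over the 10 was 0.28, against -0.01 over all genes tested.

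**Figure D3:**
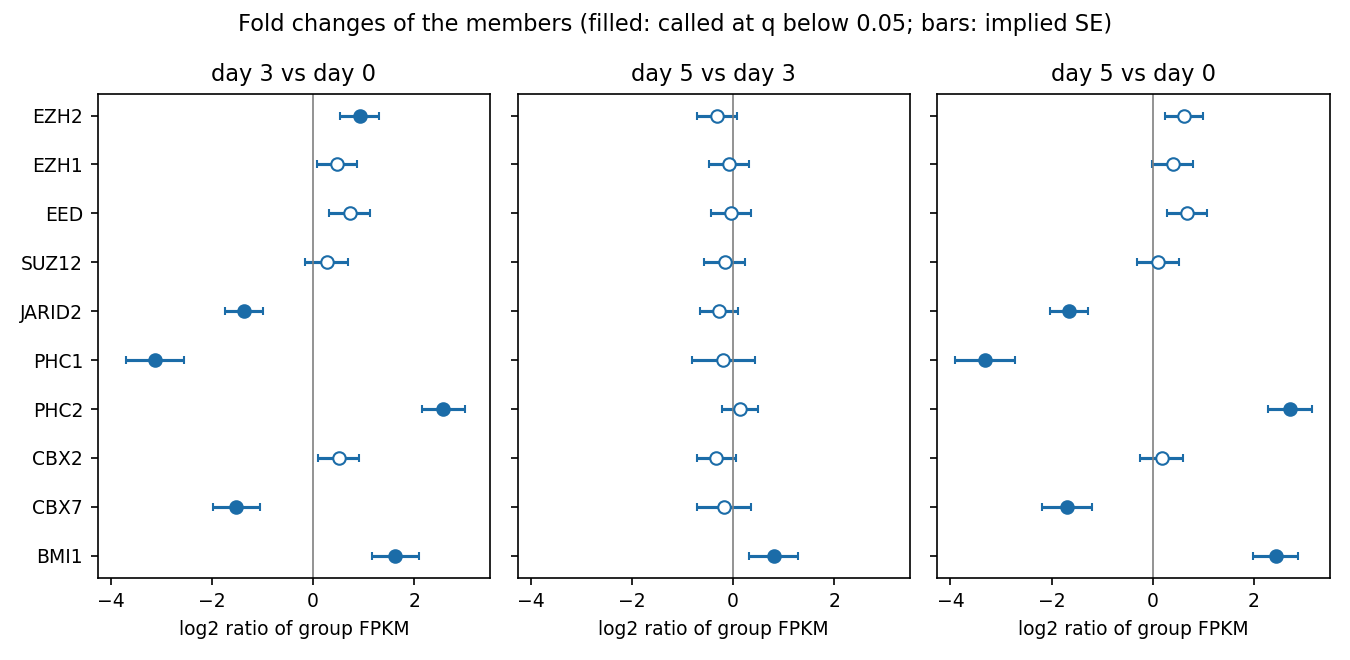
Log2 ratio of group FPKM for the 10 members in the comparisons of day 3 with day 0, day 5 with day 3 and day 5 with day 0; bars are the standard errors implied by the deposited test statistic and filled points were called at q below 0.05. On day 5 against day 3 every point but that of BMI1 (0.81) is open.

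A further 49 genes of the same complexes, their partners and their antagonists were listed by role, and all 49 were tested in each comparison. For day 3 against day 0 the calls were 11 up and 3 down, for day 5 against day 3 they were 2 up and 4 down, and for day 5 against day 0 they were 16 up and 6 down. Over all tested genes the shares up and down were 8.96% and 11.6%, 5.93% and 6.68%, and 12.2% and 14.7% in the same order. The counts of day 5 against day 3 and the falls of day 5 against day 0 thus lie near the background. The falls of day 3 against day 0 lie below it, and only the rises against day 0 lie above it. The list and its division by role were written with earlier results of these data known. Counts from them, here and below, are therefore descriptions and cannot be weighed against these shares. The median log2 ratio of the 49 genes was 0.37, 0.04 and 0.17 in these comparisons. The genes called in any comparison numbered 22. RING1 and PHF1 are listed on haplotype contigs, and RBBP4, PCGF1, PCGF2, LCORL, SCMH1, L3MBTL2, MGA and MBD5 share their loci with other genes, so their levels are uncertain.

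Of SAM domain genes related to PHC1 and PHC2, PHC3, SCMH1, SCML1 and SCML2 were listed, and all 4 were called higher on day 5 than on day 0, where 12.2% of tested genes were. Of these calls, those of SCMH1 and SCML2 are lost at a q below 0.01, and those of PHC3, SCMH1 and SCML2 with a p computed from the test statistic, which leaves 1 of 4. SCML1 was at 1.05, 3.33 and 6.38 on days 0, 3 and 5 (log2 2.60 ± 0.48 on day 5 against day 0), and SCML2, its neighbour on chromosome X, at 8.14, 14.5 and 14.6. SCMH1 was at 11.4 on day 5, against 6.26 on day 0.

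Of 12 listed genes of variant PRC1, which carries RYBP or YAF2 in place of a CBX protein, day 5 calls against day 0 were 4 up and 3 down, beside 12.2% and 14.7% of all tested genes. The calls of E2F6 and FBRSL1 in that comparison are lost at a q below 0.01, and those of E2F6 and AUTS2 with a p computed from the test statistic. YAF2 rose to 2.67 on day 3 and 4.14 on day 5, against 0.398 on day 0 (log2 3.38 ± 0.48 on day 5), while its paralog RYBP was not called (20.2, 16.2 and 15.7). BCOR and BCORL1, paralogous subunits of the PCGF1 form, diverged. BCOR fell to 4.76 on day 5, against 11.2 on day 3 (log2 -1.24 ± 0.40), and BCORL1 was called higher on day 5 than on day 0 (7.96 against 1.18, log2 2.76 ± 0.43). AUTS2 and FBRSL1, subunits of the PCGF3 and PCGF5 forms, were called lower on day 5 than on day 3, though the AUTS2 call is lost at a q below 0.01 and with a p computed from the test statistic. AUTS2 was at 11.7 on day 5, against 21.2 on day 3, and FBRSL1 at 7.98, against 15.5. FBRS, the paralog of FBRSL1, was at 4.50, 9.69 and 13.1 on days 0, 3 and 5 and was called higher on days 3 and 5 than on day 0. E2F6, a DNA-binding repressor of the PCGF6 form, was called higher on day 5 than on day 0 (10.5 against 5.76). KDM2B, which brings variant PRC1 to CpG islands, was not called, at 28.3, 32.3 and 26.4.

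The lysine 27 demethylases went opposite ways, with KDM6A falling to 6.58 on day 3, against 15.7 on day 0 (log2 -1.25 ± 0.42), and KDM6B rising to 9.99, against 4.53 (log2 1.14 ± 0.33). Neither was called from day 3 to day 5. Of 8 genes listed for PR-DUB, which removes ubiquitin from histone H2A, 2 were called higher on day 3 than on day 0 and 3 on day 5, with 0 lower, where 8.96% and 12.2% of tested genes were called higher. The enzyme BAP1 was not called (27.3, 33.5 and 28.4), but its partner ASXL1 rose to 16.3 on day 3, against 5.18 on day 0 (log2 1.66 ± 0.56). ASXL3, a paralog of ASXL1 known from neural tissue, was at 0.0506, 0.686 and 1.30 on days 0, 3 and 5 and was called higher on days 3 and 5 than on day 0, the day 3 call resting on levels under 1 FPKM. FOXK1 was called higher on day 5 than on day 3 (5.40 against 2.88), a call lost at a q below 0.01 and with a p computed from the test statistic. ASXL2, MBD5, MBD6 and FOXK2 were called in no comparison.

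Among 4 listed genes of PhoRC and related MBT domain repressors, 1 was called lower on day 3 than on day 0, where 11.6% of tested genes were. SFMBT2 fell to 0.904 on day 3, against 2.56 on day 0 (log2 -1.50 ± 0.49), and YY1, SFMBT1 and L3MBTL1 were called in no comparison.

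**Figure D4:**
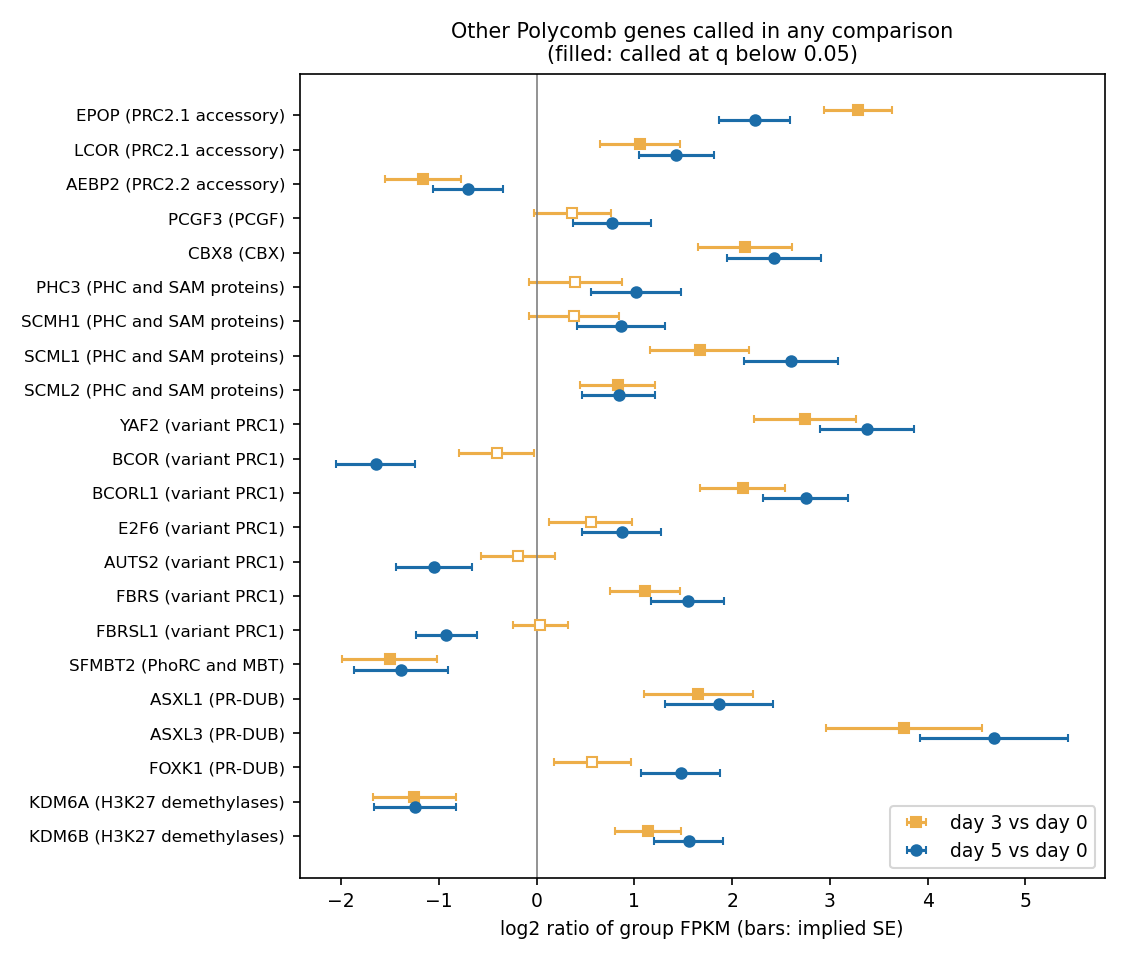
Log2 ratio of group FPKM for the 22 further Polycomb genes called in any comparison, day 3 against day 0 (squares) and day 5 against day 0 (circles), with implied standard errors; filled symbols were called at q below 0.05. EPOP (3.29 on day 3) lies among the highest and KDM6A (-1.25) among the lowest.

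The classical Polycomb targets, the HOX genes, stayed at very low FPKM. None of the 39 reached an FPKM of 1 on day 0, HOXA2 did so on day 3 (1.97) and HOXB1 on day 5 (1.04). HOXA2 was not called on day 3 against day 0 (log2 7.89 ± 2.23) and was called lower on day 5 (0.141) than on day 3. HOXB1 was not called on day 5 against day 3. On days 0, 3 and 5, 32, 25 and 25 of the 39 HOX genes were listed at 0. HOXB1 and HOXB2, which lie at the 3′ end of their cluster, were called higher on day 5 than on day 0, where both were listed at 0, so no fold is given. At the CDKN2 locus, a known target of BMI1 and CBX7, CDKN2A was at 0.450, 0.284 and 0.318 without a call. CDKN2B was at 0.664 on day 5, against 0.124 on day 3 and 0.0923 on day 0, and was called higher on day 5 than on either earlier day. These levels of CDKN2A and CDKN2B all lie under 1 FPKM. CDKN2A shares its listed locus with C9orf53, and CDKN2B with CDKN2B-AS1, so their values are uncertain. The libraries hold no measurement of histone marks or of binding.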

How the data were processed

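Poly-adenylated RNA of 6 libraries, 2 per group, was analysed from a single deposited table in the layout of a Cuffdiff gene test, with 69852 rows for 23284 genes in 3 comparisons. The submitters' processing notes name TopHat2 2.0.10, Cuffdiff 2.1.1 and build hg19; annotation and strandedness, not given in the sources used here, could shift the FPKM of overlapping genes, and library depth is unknown. Per the file headers, the authors deposited FPKM per group, a test statistic (used here as a score), and a p-value and q-value per gene and comparison. The deposited q equals a Benjamini-Hochberg adjustment over the 48572 tested rows to within 5.25e-07, with 4078 rows at the lowest p of 5e-05.

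Here a gene with status OK was tested, and called at q below 0.05. Folds were recomputed from FPKM, and implied standard errors are the log2 ratio over the test statistic, used as descriptions. Starts were read as counted from 0, since end minus start equalled the RefSeq gene length for 1901 genes, against 253 with 1 base added, and are printed counted from 1. Members and gene lists were chosen with earlier results of these data known. All 10 members are named, as are further Polycomb genes called with 1 FPKM or more and neighbours of PHC1 with 5 FPKM or more; other genes were named after their values were seen, and some genes are not reported here. Shared sequence was counted as exact 50-base words in GENCODE release 29 transcripts. Python 3.11.15, pandas 2.3.3 and scipy 1.17.1 were used, and the adjustment was tested on simulated data. Alternatives were another q threshold, a p computed from the statistic, adjustment within a comparison, an FPKM minimum of 1, pseudocounts of 1 and 0.1, and 2 rescalings; the pseudocount for paralog ratios was chosen after seeing the data.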

Additional observations from a re-analysis of the deposited data

How the results depend on the processing

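The counts of members called on day 3 and on day 5 against day 0 stayed within 1.5 times under all 4 alternative call rules (5 to 6 and 5 of 10). On day 5 against day 3 the single call, BMI1, was lost at a q below 0.01, with a normal p of the statistic and with adjustment within the comparison, each leaving 0 of 10, and kept with an FPKM minimum of 1; the further Polycomb genes called in that step numbered 3 in place of 6 at a q below 0.01 and with the normal p. In 120 recomputed fold changes of members, 118 moved by less than 1 implied standard error and 3, all of values not called, took the other sign. The 2 that moved were those of CBX7 with a pseudocount of 1 (-0.999 on day 3 and -1.09 on day 5 against day 0). With that pseudocount the median over members was 0.46 on day 3 and 0.26 on day 5 against day 0, and the CBX2 to CBX7 ratio was 30.3 on day 3 and 25.8 on day 5. Rescaling to one sum without the 3 highest genes shifted every log2 ratio by 0.15 on day 5 against day 3 and by 0.13 on day 5 against day 0, and ended no direction of a called member. No paired analysis was possible because the table combines the 2 libraries of each group, and for the same reason no replicate could be left out.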

Other observations

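PHC1 lies 1125 kb beyond NANOG on chromosome 12, and the genes between them were looked at after the values were seen. Of the 22 genes from NANOG to PHC1, 4 were called lower and 1 higher on day 3 than on day 0, 10 were not called and 7 were not tested. Over all 16231 tested genes, 11.6% were called lower and 8.96% higher. NANOG and PHC1 were picked as the ends with their falls known, so the count cannot be weighed against these shares. The 4 that fell were NANOG (0.659 on day 3, against 40.8 on day 0), POU5F1P3, A2ML1 and PHC1. POU5F1P3 is a pseudogene of POU5F1, and its level was 18.0 on day 3, against 239 on day 0; the part of fragments from POU5F1 in it was not tested. The glucose transporter genes SLC2A3 (193 on day 3, against 227 on day 0) and SLC2A14 (33.0, against 45.2) were not called, nor were NECAP1 (9.08, against 9.42) and FOXJ2 (2.84, against 3.52).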
